A study of Homo sapiens with 6 samples.

Results

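The HOX genes are the members of the HOXA, HOXB, HOXC and HOXD clusters, and this account describes them in H358, a human line from a non-small cell lung tumour whose cells look epithelial. Members were the genes of the array whose probe set carries exactly 1 annotated symbol made of HOX, a cluster letter and a paralogue number. This gave 27 genes among the 18417 genes tested: 1 of HOXA, 10 of HOXB, 7 of HOXC and 9 of HOXD. RefSeq lists 39 such symbols. HOXC4 and HOXC6 share a single probe set and were not members, and 10 HOXA genes were not analysed here. None of the 27 had more than 1 probe set, so the choice of the brightest never applied.

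RNA came from 2 lines of H358, one stably expressing green fluorescent protein (GFP, 3 arrays) and one stably expressing TwistER (3 arrays). In constructs of this type the Twist factor is fused to an estrogen receptor domain and is switched on by 4-hydroxytamoxifen (4OHT). Both lines received 100 nM 4OHT for 12 days, and the titles place GFP before and TwistER after epithelial-mesenchymal transition (EMT). The labels name biological replicates without saying whether they were separate cultures, and p-values therefore reflect only the variation among these arrays, which may be technical. They give no promoter for either construct and do not say whether a line grew from 1 clone. TwistER cells without 4OHT are not among the arrays, so effects of the active factor and other differences between the lines cannot be told apart.

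HOX proteins are homeodomain transcription factors that give body segments their identity. Within a cluster the genes lie in a fixed order, from the low, anterior paralogue numbers to the high, posterior ones, and in embryos they are opened in that order. Polycomb complexes keep the clusters shut by methylating histone H3 on lysine 27, trithorax and MLL proteins keep them open, and retinoic acid activates their anterior end. HOX proteins gain DNA specificity from TALE partners of the PBX and MEIS families. In adult tissues the pattern of active HOX genes is largely kept as a record of a cell's position.

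A single HOX gene passed the test between the lines, and 7 of 13 refits with other settings or arrays called it. Those 7 include the refits by mean of probe sets and by all probe sets. These left the gene's values unchanged because it has 1 probe set, so they are no separate check. HOXA2, a selector gene of the second branchial arch, was lower in the TwistER line by 1.55-fold (a log2 difference of -0.63 with an SE of 0.16, n = 3 arrays per group). It was the 1 member past the test (limma, Benjamini-Hochberg adjusted p under 0.05 over all 18417 genes), and 0 members rose. At an unadjusted p under 0.05 limma gave 2 members, HOXA2 and HOXB3, and 21.6% of all genes. After adjustment 8.83% of all genes passed, 4.72% upward and 4.11% downward. The members' median difference was 0.04, against 0.01 over all genes, and their median absolute difference was 0.09, against 0.15. By direction, 15 members were above 0 and 12 below. In 3 of 27 members the TwistER arrays lay wholly outside the GFP arrays, as they did in 28.4% of all genes.

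**Figure D1:**
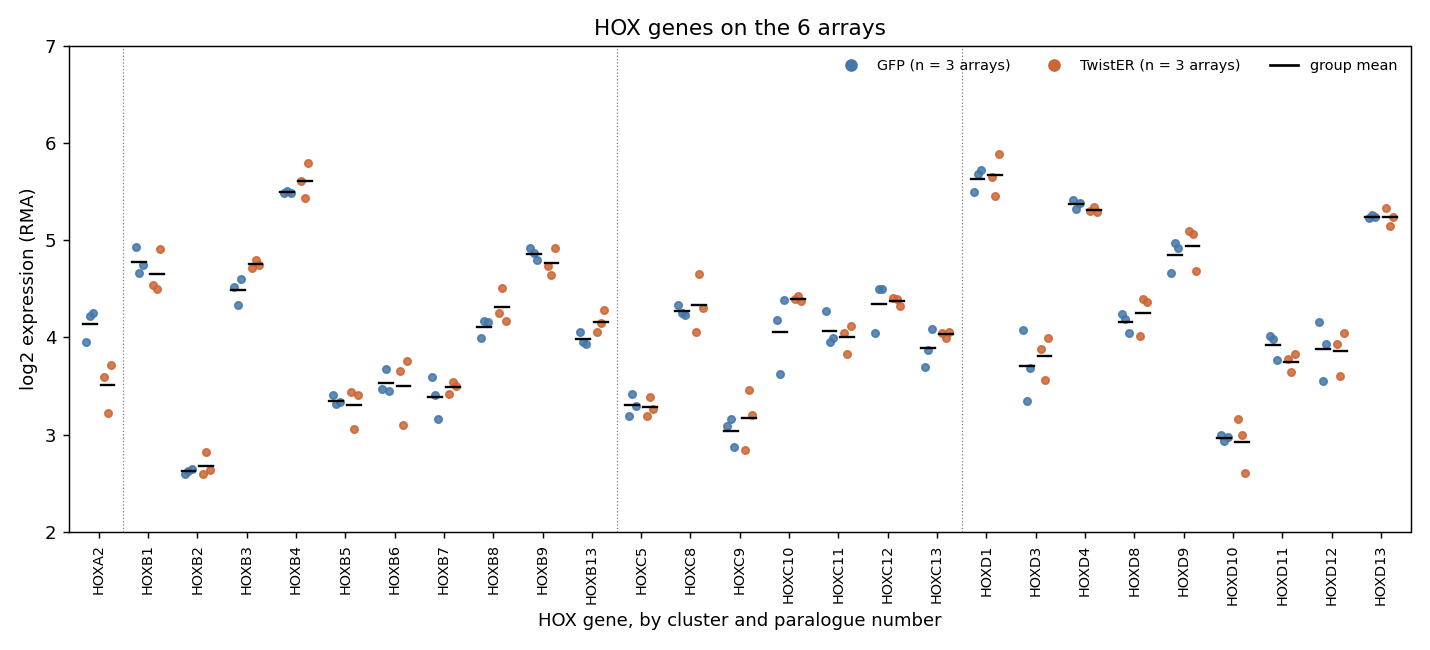
Log2 expression (RMA) of the 27 HOX genes on each of the 6 arrays, by cluster and paralogue number. Points are arrays (blue GFP, orange TwistER) and black bars are group means of 3. The groups lie apart in HOXA2, HOXB3 and, narrowly, HOXB8. Levels are comparable within a gene and not between genes.

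Most members were dim on every array. Ranked by mean log2 level over the 6 arrays, 25 of 27 lay below the median of all genes and 16 below the 25 percentile, and the members' median rank was the 22.7 percentile. Such a rank shows where background light compresses differences. It does not order the genes by transcript amount, because probes differ in affinity. The medians of the 27 log2 levels were 4.08, 3.98 and 4.09 on the GFP arrays and 4.05, 4.15 and 4.17 on the TwistER arrays. Among the 9008 genes within the members' range of brightness (percentiles 4.71 to 53.6, a range set after seeing the values), 4.82% passed the test and 18.5% had groups that did not overlap. The HOX share, 1 of 27 or 3.7%, is near that background.

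The precision allowed a bound on most members. limma's 95% interval of the difference stayed within 2-fold in either direction for 27 of 27 members, as it did for 92.0% of all genes. It stayed within 1.5-fold for 25 of 27, against 66.1% of all genes and 74.6% of genes in the same range of brightness. The exceptions were HOXA2 (-0.99 to -0.27) and HOXC10 (-0.08 to 0.77). These bounds hold for the deposited log2 values, in which low transcript levels are compressed.

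HOXA2 patterns the hindbrain and the second branchial arch. Its log2 levels were 3.95, 4.22 and 4.25 in GFP and 3.59, 3.22 and 3.72 in TwistER. Every TwistER array was below every GFP array, with GFP replicate 1 and TwistER replicate 3 lying nearest to each other. The limma adjusted p was 0.0428, at a mean level in the 19.1 percentile of brightness. With a block for replicate number the difference was again -0.63, but it did not pass (limma adjusted p = 0.0516). The call was lost without GFP replicate 2 (-0.59, adjusted p = 0.13), GFP replicate 3 (-0.57, 0.119), TwistER replicate 1 (-0.67, 0.107), TwistER replicate 2 (-0.48, 0.145) or TwistER replicate 3 (-0.74, 0.0584), and was kept without GFP replicate 1 (0.0193), all by limma. Neighbouring HOXA genes were not analysed here, so whether they moved with it is not known.

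The 250 bases before the HOXA2 start are shown because it is the member past the test (RefSeq, GRCh38.p14, chr7:27102684-27102933, minus strand). Capitals mark an E-box, CANNTG, the site family bound by Twist and other helix-loop-helix factors, and a PBX-HOX motif, TGATNNAT, here on the reverse strand.
HOXA2: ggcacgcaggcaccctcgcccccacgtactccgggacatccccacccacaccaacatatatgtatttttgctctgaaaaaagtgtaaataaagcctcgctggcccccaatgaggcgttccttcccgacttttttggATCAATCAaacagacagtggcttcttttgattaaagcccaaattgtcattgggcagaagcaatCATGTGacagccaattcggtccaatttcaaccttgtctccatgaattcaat
The E-box begins 51 bases and the PBX-HOX motif 114 bases before the start, and they do not overlap. E-boxes are common: on either strand 61.8% of 35114 windows of this length hold at least 1, and the PBX-HOX motif is in 6.47%. Of 11 members with a window in the table, 10 hold an E-box and 3 (HOXA2, HOXB1 and HOXD11) the PBX-HOX motif. A match of letters is no evidence of binding, and a part of either motif in the HOXA2 difference was not tested.

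In the HOXB cluster on chromosome 17, 0 of 10 genes passed (1 at an unadjusted limma p under 0.05), with a median difference of 0.08. For all genes the shares were 8.83% adjusted and 21.6% unadjusted. HOXB3, a hindbrain and blood progenitor factor, came nearest. Its log2 levels were 4.52, 4.33 and 4.60 in GFP and 4.71, 4.80 and 4.75 in TwistER. The groups did not overlap, but the difference of 0.27 ± 0.11 did not pass (limma adjusted p = 0.213, 95% interval 0.01 to 0.52). HOXB8, a regulator of myeloid progenitors, read 3.99, 4.17 and 4.16 in GFP and 4.25, 4.51 and 4.17 in TwistER. Its groups were separated by less than the rounding of these values, and its difference was 0.21 ± 0.13 (limma adjusted p = 0.417). HOXB13, a posterior gene best known from the prostate, read 4.06, 3.95 and 3.93 in GFP and 4.06, 4.15 and 4.28 in TwistER, a difference of 0.18 ± 0.11 (limma adjusted p = 0.419).

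The other HOXB genes overlapped between the lines. HOXB4, a factor of blood stem cells, read 5.49, 5.51 and 5.49 in GFP and 5.61, 5.43 and 5.80 in TwistER, so that the TwistER arrays spread on both sides of the GFP arrays. HOXB7, a factor studied in tumour cells, read 3.59, 3.41 and 3.16 in GFP and 3.42, 3.54 and 3.50 in TwistER (0.11 ± 0.13). HOXB5, which takes part in branching of the embryonic airway, read 3.41, 3.31 and 3.33 against 3.44, 3.06 and 3.41 (-0.04 ± 0.13). Its 95% interval was -0.34 to 0.25 on the log2 scale. The differences of HOXB1 and HOXB2, both hindbrain genes, were -0.13 ± 0.14 and 0.06 ± 0.11. HOXB6 and HOXB9 had differences of -0.03 ± 0.18 and -0.10 ± 0.11. HOXB2, at the 4.71 percentile, was the member lowest in brightness, and its levels ran from 2.59 to 2.82 over the 6 arrays.

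In the HOXC cluster on chromosome 12, 0 of 7 genes passed in limma (0 also at an unadjusted p under 0.05). All 7 overlapped between the lines, with a median difference of 0.06. Over all genes 8.83% passed, 21.6% did unadjusted, and 28.4% had groups that did not overlap. HOXC10, a posterior gene of the hindlimb and lower spinal cord, had the largest positive difference of all members. It read 4.18, 3.62 and 4.38 in GFP and 4.40, 4.43 and 4.37 in TwistER. The TwistER arrays agreed closely and GFP replicate 2 was low, and the difference of 0.34 ± 0.19 did not pass (limma adjusted p = 0.347). Across the alternatives and left-out arrays the HOXC10 difference ran from 0.12 to 0.50. HOXC13, a hair and nail factor, read 3.70, 3.87 and 4.09 in GFP and 4.05, 3.99 and 4.06 in TwistER (0.15 ± 0.13). HOXC9, a trunk-level gene, read 3.09, 3.16 and 2.87 in GFP against 2.84, 3.46 and 3.20 in TwistER (0.13 ± 0.17). HOXC8, HOXC11, HOXC12 and HOXC5 had differences of 0.06 ± 0.15, -0.07 ± 0.13, 0.03 ± 0.15 and -0.02 ± 0.11.

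The probe set shared by HOXC6 and HOXC4 lay outside the rule. It read 3.24, 3.50 and 3.50 in GFP and 3.62, 3.70 and 3.77 in TwistER. Every TwistER array was higher, and the difference of 0.29 ± 0.12 did not pass in a limma fit over all 33297 probe sets (adjusted p = 0.335).

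In the HOXD cluster on chromosome 2, 0 of 9 genes passed in limma (0 also at an unadjusted p under 0.05) and all 9 overlapped between the lines. Over all genes 8.83% passed, 21.6% did unadjusted, and 28.4% had groups that did not overlap. Differences ran from -0.17 to 0.11, and the median rounded to 0. HOXD13, the most posterior member and a gene of digit formation, read 5.23, 5.26 and 5.24 in GFP and 5.33, 5.15 and 5.24 in TwistER. Its 95% interval of -0.24 to 0.23 was among the tighter ones. HOXD4, another hindbrain gene, read 5.41, 5.32 and 5.38 in GFP and 5.30, 5.34 and 5.29 in TwistER (-0.06 ± 0.10). HOXD11, a forearm gene, had the largest negative difference of the cluster: 4.01, 3.98 and 3.77 in GFP against 3.78, 3.64 and 3.83 in TwistER (-0.17 ± 0.12, limma adjusted p = 0.479).

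The remaining HOXD genes overlapped too. HOXD3, a factor linked to cell adhesion genes, read 4.08, 3.35 and 3.68 in GFP and 3.88, 3.56 and 3.99 in TwistER, with the largest SE of the members (0.11 ± 0.20). HOXD10, a lumbar spinal cord gene, read 3.00, 2.93 and 2.97 in GFP and 3.16, 3.00 and 2.60 in TwistER (-0.05 ± 0.15). HOXD1, the member highest in brightness at the 53.6 percentile, read 5.50, 5.68 and 5.72 in GFP and 5.65, 5.46 and 5.89 in TwistER (0.04 ± 0.14). HOXD8, HOXD9 and HOXD12 had differences of 0.09 ± 0.13, 0.09 ± 0.15 and -0.02 ± 0.18.

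By position along the clusters no direction stood out. The 6 anterior genes (paralogue numbers 1 to 3) had a median difference of 0.05, the 9 central ones (4 to 8) of 0.06 and the 12 posterior ones (9 to 13) of 0.01. HOXA2, the member past the test, is anterior. Across the 27 genes Spearman's rho between difference and paralogue number was 0.12. Within clusters it was 0.21 for HOXB (10 genes), 0.21 for HOXC (7 genes) and -0.42 for HOXD (9 genes). These are descriptions: genes of a cluster are neighbours measured on the same arrays, and their differences in HOXD span only -0.17 to 0.11.

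Genes beside the clusters lay higher in the arrays' range of brightness, at a median percentile of 78.3. Of 21 measured, 2 passed, both upward (median difference 0.05), and this share of 9.52% is near the 8.83% of all genes. The 21 include PRAC1, which lies inside HOXB between HOXB9 and HOXB13. CALCOCO1, a transcriptional coactivator and autophagy receptor next to the HOXC13 end of its cluster, read 4.61, 5.22 and 5.11 in GFP and 5.73, 5.94 and 5.74 in TwistER. It rose 1.77-fold (0.83 ± 0.17, limma adjusted p = 0.0183), while HOXC13 beside it had a difference of 0.15. The CALCOCO1 call was lost without TwistER replicate 1 (0.0619), 2 (0.0906) or 3 (0.0653). HIBADH, a mitochondrial enzyme of valine breakdown beyond EVX1 at the HOXA13 end, read 8.96, 9.33 and 9.19 in GFP and 9.64, 9.68 and 9.72 in TwistER. It rose 1.43-fold (0.52 ± 0.12, limma adjusted p = 0.0355), and lost the call without GFP replicate 3 (0.0854) or TwistER replicate 1 (0.106), 2 (0.131) or 3 (0.13). Among the direct neighbours, SKAP2 beside HOXA (-0.18 ± 0.16), SKAP1 beside HOXB (-0.12 ± 0.11), SMUG1 beside HOXC (0.11 ± 0.16) and MTX2 beside HOXD (-0.29 ± 0.14) did not pass. Farther out, TAX1BP1 beside HIBADH (0.44 ± 0.13), CALCOCO2 (0.42 ± 0.12) and ATP5MC1 (-0.40 ± 0.10) near HOXB did not pass, though their groups did not overlap. In all, groups did not overlap in 9 of the 21, MTX2 among them, and in 28.4% of all genes. With GFP replicate 1 left out, TAX1BP1 (0.54, limma adjusted p = 0.0125) and ATP5MC1 (-0.36, 0.0388) passed. Neither passed without any other single array (limma adjusted p 0.0929 to 0.248). Without GFP replicate 1, 5 of the 21 passed, without GFP replicate 3, 1 passed, and without TwistER replicate 1, 2 or 3, 0 did. Of all genes 15.1% passed without GFP replicate 1 and 6.5% without GFP replicate 3. Without a TwistER array 4.51% to 5.08% did.

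**Figure D2:**
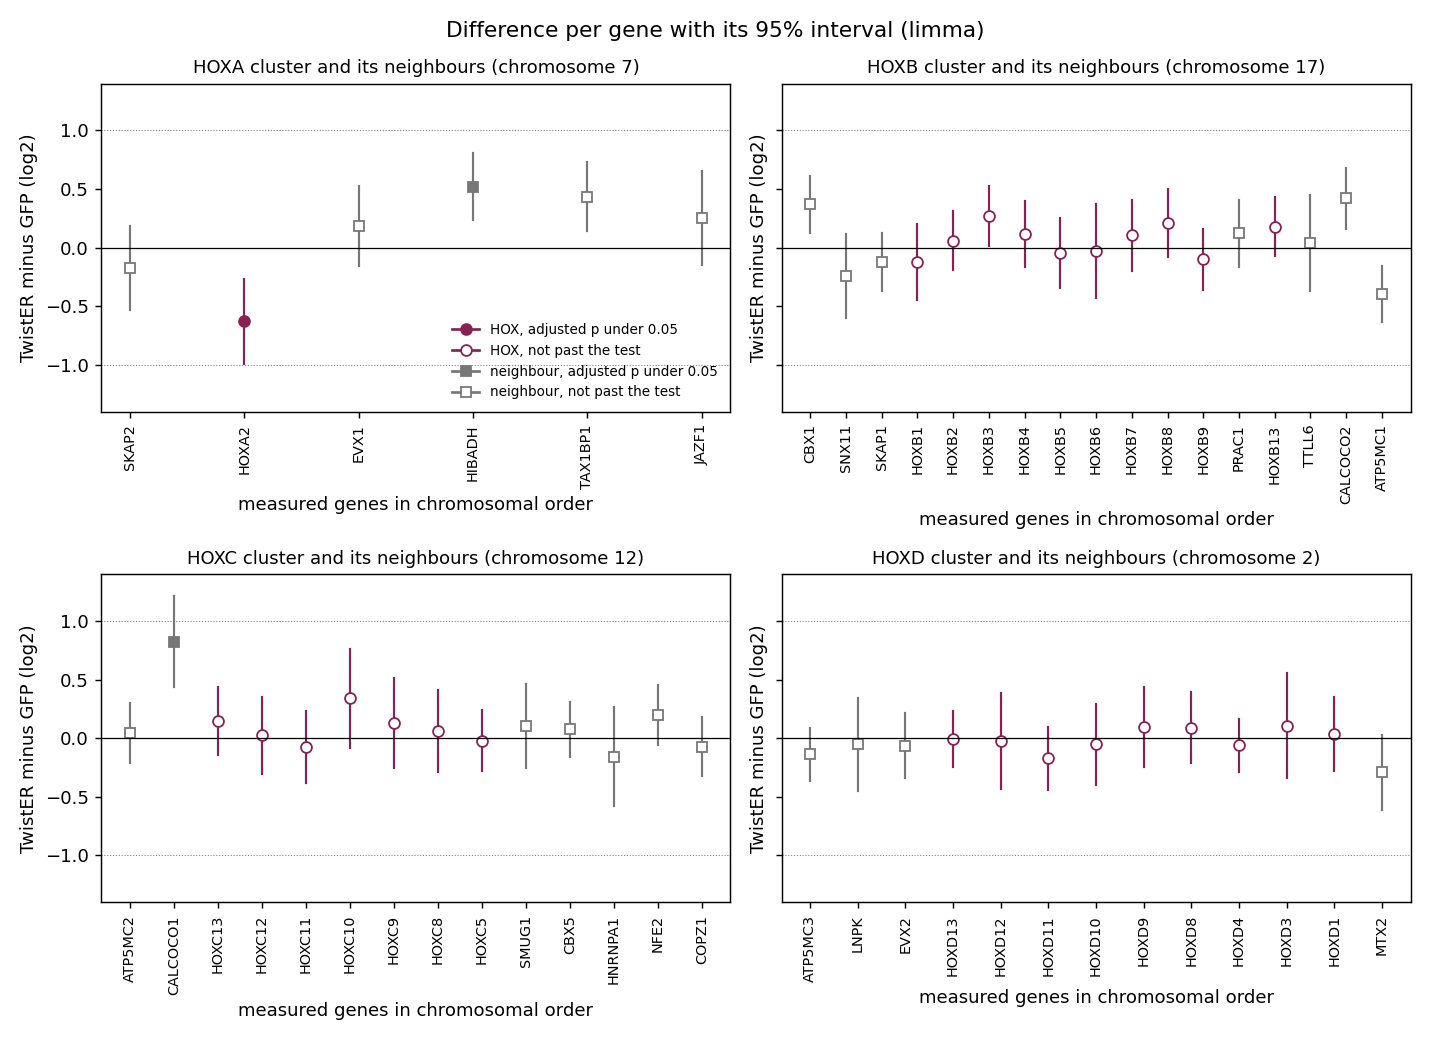
TwistER minus GFP (log2) with limma's 95% interval for the measured HOX genes of each cluster (circles) and its neighbours (squares). Genes are in chromosomal order and not to distance. PRAC1, a square, lies inside HOXB between HOXB9 and HOXB13. Filled symbols passed the test: HOXA2 was lower, and HIBADH and CALCOCO1 were higher. Dotted lines mark 2-fold in either direction.

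Among homeobox genes related to the HOX family 0 of 12 passed in limma (0 also at an unadjusted p under 0.05), with differences from -0.15 in MNX1, a motor neuron factor, to 0.23 in GBX2, a hindbrain boundary factor. They include EVX1 and EVX2, which border HOXA and HOXD, and PDX1 and GSX1 of the sister cluster. Of 6 measured non-coding RNA genes of the clusters 0 passed in limma (0 unadjusted), with differences from -0.24 to 0.13. For comparison with both lists, the shares of all genes were 8.83% adjusted and 21.6% unadjusted. The microRNAs of the clusters are known to repress HOX messages. Members of the miR-10 and miR-196 families are shown, with the seed (bases 2 to 8) in capitals, because these families have genes in more than 1 cluster (RefSeq, GRCh38.p14).
hsa-miR-10a-5p: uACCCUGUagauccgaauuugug
hsa-miR-196a-5p: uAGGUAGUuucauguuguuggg
MIR10A, in HOXB, read 2.34, 1.83 and 1.83 in GFP and 1.78, 2.16 and 2.16 in TwistER, and MIR10B, in HOXD, read 2.27, 1.58 and 1.94 against 1.68, 2.09 and 1.75. The miR-196a sequence comes from MIR196A1 in HOXB and from MIR196A2 in HOXC. MIR196A1 read 4.07, 4.17 and 3.88 in GFP and 4.07, 3.93 and 4.51 in TwistER, and MIR196A2 read 3.37, 3.01 and 3.10 against 2.97, 2.65 and 3.14. The groups overlapped in all 4. Whether these probe sets register the mature form or a longer precursor is not given in the sources used here.

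Among regulators of the clusters, the retinoic acid genes RARB and CYP26A1 rose. Of 11 measured retinoid and CDX genes these 2 rose and 0 fell, with a median difference of 0.17. That is 18.2% of the list, against 8.83% of all genes, and the list was not tested as a whole. RARB, a retinoic acid receptor that is itself induced by retinoic acid, read 4.45, 4.95 and 4.68 in GFP and 6.02, 5.98 and 6.20 in TwistER. It rose 2.60-fold (1.38 ± 0.15, limma adjusted p = 0.000697). CYP26A1, an enzyme that degrades retinoic acid and is another target of it, read 3.46, 3.35 and 3.47 in GFP and 4.41, 4.39 and 4.11 in TwistER. It rose 1.83-fold (0.87 ± 0.12, limma adjusted p = 0.00262). Its mean level over the 6 arrays lay in the 19.7 percentile of brightness. Both calls were kept without any 1 array, with a highest limma adjusted p of 0.0201.

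Other retinoid genes did not pass. RARG, the main retinoic acid receptor of epithelia such as skin, read 5.42, 6.13 and 5.80 in GFP and 4.90, 5.04 and 5.41 in TwistER, a difference of -0.67 ± 0.20 (limma adjusted p = 0.0835). With GFP replicate 1 left out, RARG passed at -0.85 (0.0169), as did 15.1% of all genes. Without any other single array RARG did not pass (limma adjusted p 0.0876 to 0.253). CYP26C1, a relative of CYP26A1, had a difference of 0.29 ± 0.10 (limma adjusted p = 0.135). The intestinal HOX activators CDX1 and CDX2 had differences of 0.22 ± 0.20 and 0.17 ± 0.15. HOXB1, the measured anterior member best known as a direct retinoic acid target, was at 4.93, 4.66 and 4.74 in GFP and 4.54, 4.50 and 4.91 in TwistER and did not pass (limma adjusted p = 0.697).

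For each retinoid gene that rose, 1 promoter window holds the paired half-sites of a retinoic acid response element, marked in capitals. Windows are the 250 bases before a start (RefSeq, GRCh38.p14). Both strands were searched for GNTCA and again GNTCA in the same direction with 6 bases between. The RARB window is chr3:25428013-25428262, plus strand, 1 of 4 RARB windows and the one that holds the motif. The CYP26A1 window is chr10:93073643-93073892, plus strand, 1 of 2, with the motif on the reverse strand.
RARB: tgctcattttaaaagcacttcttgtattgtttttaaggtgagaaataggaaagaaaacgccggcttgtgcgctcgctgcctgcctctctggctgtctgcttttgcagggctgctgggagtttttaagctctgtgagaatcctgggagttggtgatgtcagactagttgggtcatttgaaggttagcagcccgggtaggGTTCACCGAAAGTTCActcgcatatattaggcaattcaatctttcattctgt
CYP26A1: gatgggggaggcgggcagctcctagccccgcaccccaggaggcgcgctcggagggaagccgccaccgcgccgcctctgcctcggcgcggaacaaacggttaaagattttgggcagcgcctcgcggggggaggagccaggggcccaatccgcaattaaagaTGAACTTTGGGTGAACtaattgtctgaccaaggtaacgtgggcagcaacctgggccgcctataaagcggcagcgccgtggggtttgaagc
The motif is in 0.584% of the 35114 windows and in 0 of the 11 HOX windows searched. That says only that these letters are not in those windows, since known retinoid elements of HOX genes also lie elsewhere in the clusters. The RARB and CYP26A1 windows were picked because they hold the motif. The search had been tried on the letters of the RARB element, so its match was given in advance. Here too a match is no evidence of binding, and a part of retinoic acid in either rise was not tested.

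Of 25 measured Polycomb genes 1 rose and 1 fell (median difference -0.04). This share of 8% is near the 8.83% of all genes. JARID2, which helps bring the methyltransferase complex to chromatin, read 7.40, 7.70 and 7.78 in GFP and 6.93, 7.15 and 7.07 in TwistER. It fell 1.49-fold (-0.58 ± 0.13, limma adjusted p = 0.0306). PHC3, a subunit of the complex that compacts marked chromatin, read 8.51, 8.45 and 8.70 in GFP and 9.08, 9.09 and 9.10 in TwistER. It rose 1.45-fold (0.54 ± 0.11, limma adjusted p = 0.0181), but with the mean of its probe sets the difference was 0.34 and did not pass (0.177). The JARID2 call was lost without GFP replicate 2 (0.105) or 3 (0.0968) or TwistER replicate 1 (0.127), 2 (0.08) or 3 (0.102). The PHC3 call was lost without GFP replicate 2 (0.078) or TwistER replicate 1 (0.0741), 2 (0.0827) or 3 (0.0728).

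The methyltransferase EZH2 itself read 8.92, 8.76 and 8.75 in GFP and 8.51, 8.54 and 8.51 in TwistER. All TwistER arrays were lower, but its difference of -0.29 ± 0.10 did not pass (limma adjusted p = 0.144). The core subunits SUZ12 and EED had differences of -0.28 ± 0.13 and -0.26 ± 0.15 that did not pass either. PHC1, a relative of PHC3, had a difference of 0.45 ± 0.13 (limma adjusted p = 0.0732), and it passed at 0.33 with GFP replicate 1 left out (0.049). Without any other single array PHC1 did not pass (limma adjusted p 0.0803 to 0.232). PCGF6, a subunit of a variant complex, had a difference of -0.44 ± 0.24 with overlapping groups. Without GFP replicate 1, 4 Polycomb genes passed, without GFP replicate 3, 1 did, and without GFP replicate 2 or TwistER replicate 1, 2 or 3, 0 did. Of all genes 15.1% passed without GFP replicate 1, 6.5% without GFP replicate 3 and 5.77% without GFP replicate 2. Without a TwistER array 4.51% to 5.08% did.

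Of 16 measured trithorax, MLL and demethylase genes 1 fell and 0 rose (median difference 0.05), a share of 6.25% that is also near the 8.83% of all genes. KDM6A, the X-linked demethylase that removes the Polycomb mark, read 8.14, 7.78 and 7.67 in GFP and 6.88, 6.97 and 6.78 in TwistER. It fell 1.98-fold (-0.99 ± 0.14, limma adjusted p = 0.00334), and the call was kept without any 1 array (highest limma adjusted p 0.0237). Its relative KDM6B did not pass (0.30 ± 0.21). KMT2A, the MLL methyltransferase that maintains HOX expression, read 9.09, 9.43 and 9.44 in GFP and 9.54, 9.72 and 9.56 in TwistER, and its difference of 0.29 ± 0.13 did not pass (limma adjusted p = 0.255). DOT1L, the histone methyltransferase that works with MLL fusions, and PSIP1, which tethers MLL to chromatin, had differences of -0.41 ± 0.13 and 0.30 ± 0.12 that did not pass. Without GFP replicate 1, 2 genes of this list passed, as did 15.1% of all genes.

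Of 7 measured TALE partners 0 passed in limma (2 at an unadjusted p under 0.05), with a median difference of 0.12. For all genes the shares were 8.83% adjusted and 21.6% unadjusted. Groups did not overlap in 2 of the 7, PBX3 and MEIS3, and in 28.4% of all genes. PBX3, a partner with known roles beside HOXA genes in leukaemia, read 8.54, 8.09 and 8.12 in GFP and 7.67, 7.82 and 7.76 in TwistER. All TwistER arrays were lower, and the difference of -0.50 ± 0.14 did not pass (limma adjusted p = 0.0709). With GFP replicate 1 left out, PBX3 passed at -0.35 (0.0447), as did 15.1% of all genes. Without any other single array PBX3 did not pass (limma adjusted p 0.0898 to 0.217). MEIS1 read 4.64, 5.40 and 5.15 in GFP and 5.34, 5.48 and 5.77 in TwistER, a difference of 0.47 ± 0.20 (limma adjusted p = 0.226). MEIS3 had a difference of 0.26 ± 0.12 (limma adjusted p = 0.249) with groups that did not overlap. MEIS2, PBX4, PKNOX1 and PKNOX2 had differences of 0.15, 0.12, 0.09 and 0.06.

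**Figure D3:**
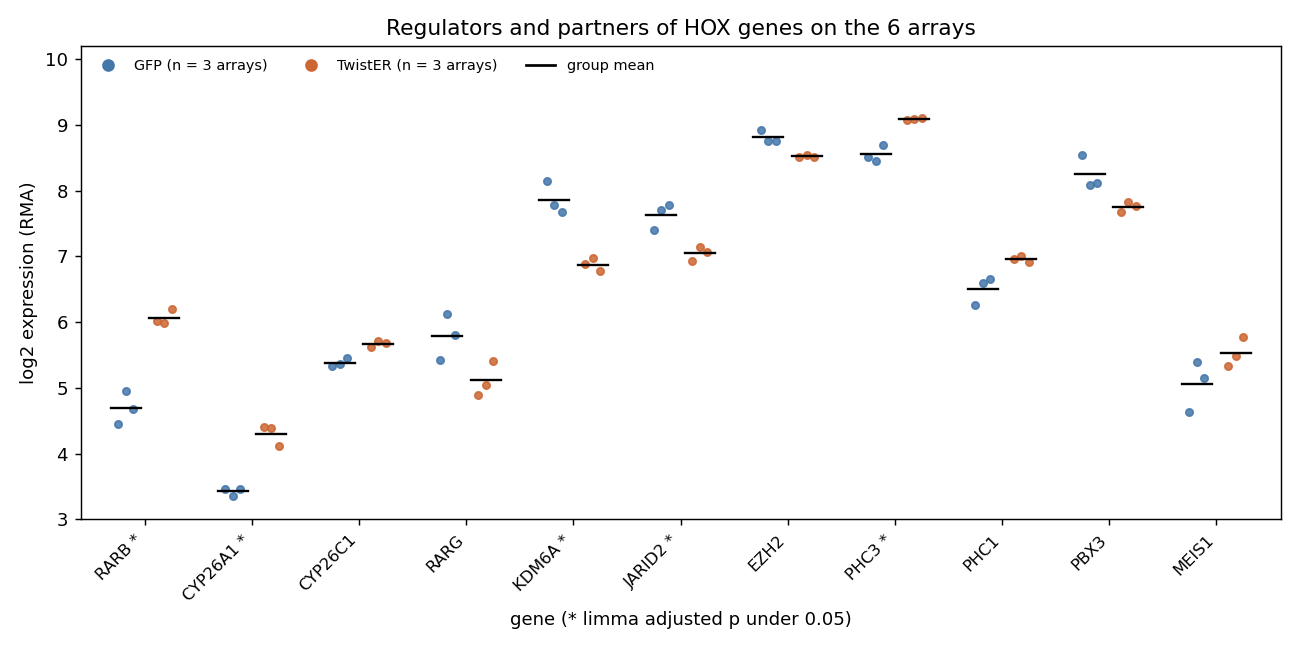
Log2 expression (RMA) of regulators and partners of HOX genes on each array (blue GFP, orange TwistER, black bars group means of 3). Asterisks mark genes past the test: RARB, CYP26A1 and PHC3 were higher in TwistER, and KDM6A and JARID2 lower.

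The lines themselves differed strongly in epithelial genes on the same arrays. Of 6 measured epithelial markers 5 fell, among them CDH1 (-4.99 ± 0.23), and the arrays' mean over the list was 8.79 to 9.37 in GFP and 6.72 to 6.78 in TwistER. Of 6 lung epithelial markers 1 fell: FOXA2, a factor of airway and gut epithelium (-0.96 ± 0.17, limma adjusted p = 0.00916). FOXA1, its relative, was lower on every TwistER array but did not pass (-0.35 ± 0.10, limma adjusted p = 0.0752). The list's mean was 4.90 on the lowest GFP array and 4.66 to 4.72 on the TwistER arrays. The other lung markers, NKX2-1, SFTPB, SFTPC and SCGB1A1 lay between 4.33 and 4.78 on all arrays, at or below the 33.9 percentile of brightness. Among markers of other cell types, 3 of 10 fibroblast genes rose and 1 fell, 2 of 5 endothelial genes rose and 0 of 4 leukocyte genes passed in limma (0 also at an unadjusted p under 0.05). For comparison with these and the epithelial lists, 4.72% of all genes rose and 4.11% fell. At an unadjusted limma p under 0.05 the share of all genes was 21.6%. No marker list was tested as a whole. List means were 4.58 to 4.69 in GFP and 4.75 to 4.86 in TwistER for fibroblast genes, 3.94 to 4.02 and 4.42 to 4.52 for endothelial genes, and 4.01 to 4.11 and 4.25 to 4.35 for leukocyte genes. The part of these marker lists in the HOXA2 difference was not tested. GFP replicate 1 correlated with the other GFP arrays at r = 0.982 over genes, while those correlated at r = 0.996. Over the HOX members GFP replicate 1 differed from the mean of the other GFP arrays by a median of 0.06 (-0.46 to 0.57).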

How the data were processed

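Total RNA of 6 samples was hybridised as biotinylated cRNA to an Affymetrix array, per the labels' protocols. The authors deposited log2 values, 1 per probe set, and the submitters' processing notes name RMA. RMA equalises distributions across arrays, so a shift of all genes would not show. The sources used here give no version, settings or probe definitions.

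Of 33297 probe sets, 19460 had 1 gene symbol, 1754 several and 12083 none in the platform annotation. The brightest probe set per gene gave 18417 genes, with no filter. All 6 columns were used. Entrez identifiers of 19429 probe sets matched RefSeq (GRCh38.p14), used for names, gene order, promoters and miRNAs. Promoter windows were found for 11 of 27 HOX genes.

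Differences (TwistER minus GFP) were tested in R 4.3.3 with limma 3.58.1 (lmFit, eBayes, 2-sided, no covariates), adjusted by Benjamini-Hochberg over all genes, threshold 0.05. SE and intervals are limma's, and folds are powers of the log2 difference. Rose and fell are used of called genes only. The number of arrays limits the precision. The script was tested on simulated data. Python 3.11.15 with pandas 2.3.3 and matplotlib 3.10.9 made motif searches and plots.

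Named are all HOX genes and, in 7 further lists (98 measured entries), called members and up to 3 others with the largest difference, plus markers. Core Polycomb subunits, KMT2A, direct neighbours, the remaining TALE partners, CDX2, MIR10A and lung markers were named after their values were seen. Members and lists were chosen with earlier results of these data known. Alternatives were normalization, brightness filters, probe set handling, variance model, array weights, a replicate block, left-out arrays and thresholds.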

Additional observations from a re-analysis of the deposited data

How the results depend on the processing

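Across 364 refits of single HOX genes, 0 calls were gained, 6 were lost, all in HOXA2, and 0 called values changed sign. Uncalled differences changed sign in 27 refits of 15 genes, and the refitted difference was then at most 0.17 in either direction. HOXA2 stayed between -0.74 and -0.48, and 7 of 13 refits called it. Refits by mean of probe sets and by all probe sets left every HOX gene's values unchanged, since none had more than 1 probe set. For HOX genes they are therefore no separate check. The count of lower HOX genes and of changed HOXA genes, 1 each, was 0 at an adjusted p under 0.01, and 0 to 1 with an array left out. Above the 25 and 50 percentiles of brightness HOXA2 was not tested, and 0 of the 11 and 2 members left were lower, so the change there comes from fewer genes tested. The labels do not say whether replicate numbers pair the arrays, and the values do not settle it. Deviations of same-numbered arrays correlated at 0.14, 0.02 and 0.16, and 5 of 6 arrays correlated best with their own number. These 6 are not separate readings, since the same correlations are read from the GFP and from the TwistER side. TwistER replicate 2 is among the 5 with only 0.02, against 0.00 and -0.02 with the other GFP arrays. With the replicate block HOXA2 was -0.63 (limma adjusted p = 0.0516), so 0 HOX genes passed, and 1592 genes passed in place of 1627.

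For the other lists, counts of changed genes moved as follows, and the cause was not tested. TALE partners went from 0 to 1 above the 50 percentile, with array weights and at an adjusted p under 0.1, and were 0 to 1 with an array left out. Polycomb genes went from 2 to 1 with the mean of probe sets and to 0 at 0.01, and were 0 to 4 with an array left out. They were 3 above the 50 percentile, with array weights and at 0.1. Trithorax genes went from 1 to 3 with array weights and 2 at 0.1, and were 1 to 2 with an array left out. Retinoid and CDX genes went from 2 to 1 and 0 above the 25 and 50 percentiles, where fewer were tested. They were 3 with array weights and at 0.1, and 2 to 3 with an array left out. Flanking genes went from 2 to 3 with median centring. They went to 4 with a second quantile normalization, above the 25 percentile and with a trended robust variance. The count was 5 above the 50 percentile, 6 with array weights or at 0.1, 0 at 0.01, and 0 to 5 with an array left out. Array weights raised the number of called genes from 1627 to 3268, and leaving out GFP replicate 1 raised it to 2773. These are 8.83%, 17.7% and 15.1% of all genes. Above the 25 and 50 percentiles of brightness 12.6% and 17.2% of the genes tested passed. The share was 9.07% with a second quantile normalization, 9.15% with median centring and 9.23% with a trended robust variance. It was 4.38% at 0.01, 13% at 0.1, and 4.51% to 6.5% without any other single array. Median centring and a second quantile normalization shifted the median of all genes by at most 0.030. Dim signal limits most HOX values, since differences near background are compressed.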
